A study of Rattus norvegicus with 6 samples.

Results

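The islet peptide hormones are the genes for the peptides that endocrine cells of the pancreas store and release. The set held 8 genes chosen by name: Ins1, Ins2, Iapp, Ucn3, Npy, Pyy, Gcg and Sst. The deposited table lists 7 of them among its 19289 features, and Sst was not analysed here. Of the 7, 6 had a mean of at least 1 FPKM over the 6 libraries and were tested with the 12460 features that passed the same filter; Pyy did not pass it.

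The cells were INS-1E, an established rat insulinoma line that secretes insulin, given by the labels as derived from beta cells of the pancreas. Both groups were the same line: 3 untreated libraries and 3 libraries of cells kept with uric acid (UA) for 24 hours, and the comparison asks how the hormone messages differ after exposure. The labels used here give neither the concentration nor a vehicle for the untreated cells. Nor is it stated that replicates were grown as separate cultures, so each p-value reflects only how far these libraries scatter, which may be technical. Polyadenylated RNA was sequenced. Summed estimated counts ran from 41191819 to 59092982 per library, and read as up to 4 counts per read pair, which was inferred from the values and is not stated in the labels, this gives at least 10297955 to 14773246 read pairs. FPKM values divide the fragments of a gene by its transcript length and by the total of the library.

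Insulin is made as a single chain, folded in the endoplasmic reticulum, cut in secretory granules and stored there with smaller amounts of other peptides. Rodents carry an ancestral insulin gene, Ins2, and a retrotransposed copy, Ins1, and both are active in beta cells. Amylin, the product of Iapp, and urocortin 3 are released with insulin. Glucagon marks alpha cells and somatostatin marks delta cells. NPY and PYY, members of the pancreatic polypeptide family, are found in immature or non-beta islet cells.

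Beta cell markers were by far the highest of the cell type lists; that list includes insulin, Iapp and Ucn3. All 9 of the listed beta cell markers that could be matched (of 10 chosen) were tested, with a summed level of 69061 to 83053 FPKM in the untreated and 67756 to 80322 FPKM in the uric acid libraries. Of 6 delta cell markers 2 were matched, Cckbr and Lepr, and together they summed to at most 0.098 FPKM in any library. Of 8 alpha cell markers 5 were matched, with sums of 732 to 763 FPKM and 664 to 839 FPKM. Nearly all of that came from Gc, the vitamin D-binding protein, at 621 to 813 FPKM, while the alpha cell factor Irx1 was listed at 0 in 5 libraries and at 0.0284 FPKM in uric acid library 3. Leukocyte markers (3 of 4 matched) summed to at most 2.37 FPKM, stromal and endothelial markers (4 of 5) to at most 1.59 FPKM and acinar markers (2 of 7) to at most 1.81 FPKM in any library. Duct markers (4 of 5) summed to 1.95 to 3.02 FPKM in the untreated and 1.84 to 2.02 FPKM in the uric acid libraries, and of these Sox9 fell from 1.73 to 2.01 FPKM in the untreated to 0.735 to 0.967 FPKM in the uric acid libraries (edgeR adjusted p = 0.00828). Markers of pancreatic polypeptide cells (2 of 3) summed to at most 0.322 FPKM, and Ghrl, the single marker chosen for epsilon cells, was at most 0.546 FPKM.

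The 7 hormone genes differed in level over several orders of magnitude and kept 1 order in all 6 libraries: Ins1, Ins2, Iapp, Npy, Ucn3, Gcg and then Pyy. Ins1 was the most abundant and Ins2 the next most abundant of all listed features in each library, by FPKM. Iapp ranked between 7 and 11, Npy between 222 and 353, Ucn3 between 347 and 632 and Gcg between 6211 and 8741. The FPKM ranges of neighbours in this order did not overlap except for Npy (171 to 276 FPKM) and Ucn3 (109 to 188 FPKM). Within each library Npy was nonetheless above Ucn3.

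**Figure D1:**
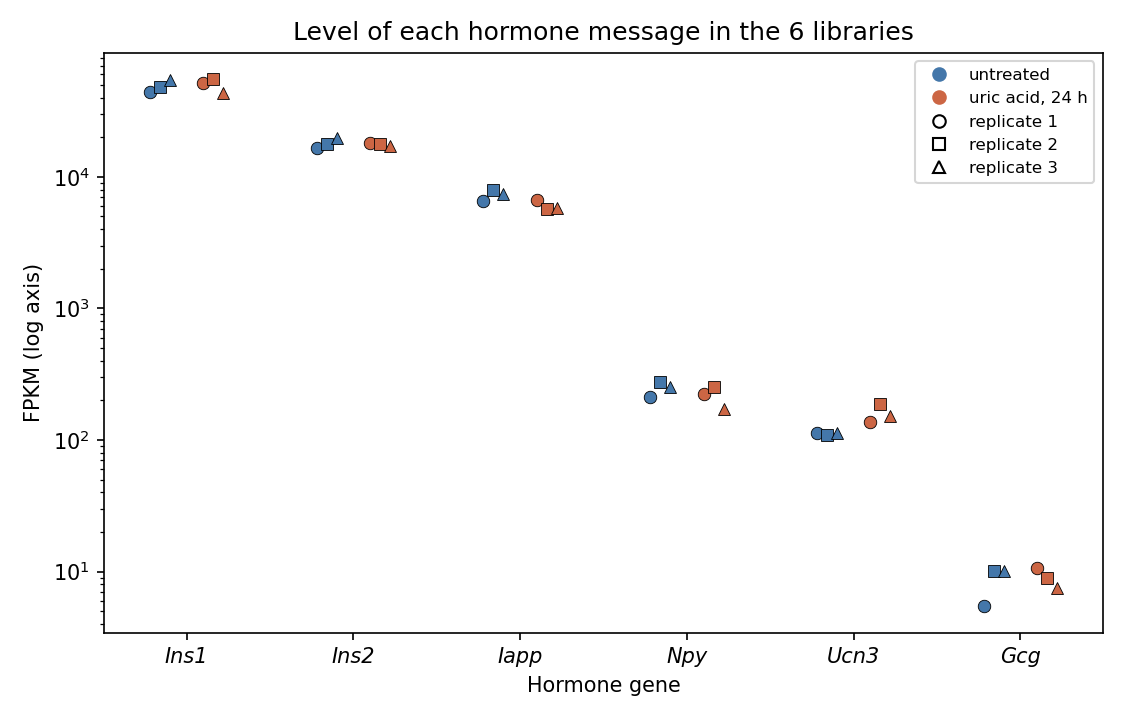
FPKM (log axis) of 6 hormone genes in each of the 6 libraries, with untreated libraries in blue, uric acid libraries in orange and 1 marker shape per replicate number. Ins1 lies at 43003 to 55064 FPKM and Gcg at 5.46 to 10.6 FPKM, and only for Ucn3 do all orange points lie above all blue points; Pyy, at 0 in 4 libraries, is not drawn.

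The hormone genes took a large part of the message pool. Together the 7 genes held 3.69, 4.04 and 4.47% of all estimated counts without uric acid and 4.13, 4.3 and 3.65% with it; values stand in replicate order here and below. The groups overlapped (mean 4.07 ± 0.392% and 4.03 ± 0.336%, SD, n = 3 each; exact permutation test, two-sided, p = 0.9). With 3 libraries against 3, an exact permutation test cannot go below p = 0.1. Measured per length, as a part of summed FPKM, the same genes held 13.2, 14 and 15.1% in the untreated and 14.3, 14.3 and 13% in the uric acid libraries. Within the hormone FPKM, Ins1 made up 64.6 to 69.7%, Ins2 22.6 to 25.8% and Iapp 7.18 to 10.7% of a library.

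Of the 6 tested hormone genes, 1 rose with uric acid and none fell at an adjusted p under 0.05 (edgeR quasi-likelihood test, Benjamini-Hochberg over all tested features). An unadjusted p under 0.05 was reached by 2, Ucn3 and Iapp, and DESeq2 called the same 2, Iapp as lower. The median log2 fold change of the 6 was 0.00, against 0.001 over all tested features. For comparison, edgeR called 7.98% of all tested features at the adjusted threshold, 4.99% as higher and 2.99% as lower. DESeq2 called more features than edgeR, 968 as higher and 785 as lower. The share of all features at an unadjusted p under 0.05 was not computed, here and for the lists below. Larger differences lay outside the set: Atf4, a transcription factor of the stress response, rose from 106 to 114 FPKM in the untreated to 222 to 278 FPKM in the uric acid libraries (log2 fold change 1.18 ± 0.09 SE, edgeR adjusted p = 0.00021). For Ddit3, which encodes the stress factor CHOP, the ranges were 18.6 to 19.8 FPKM and 46.5 to 98.2 FPKM (1.87 ± 0.23 SE, edgeR adjusted p = 0.00226).

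**Figure D2:**
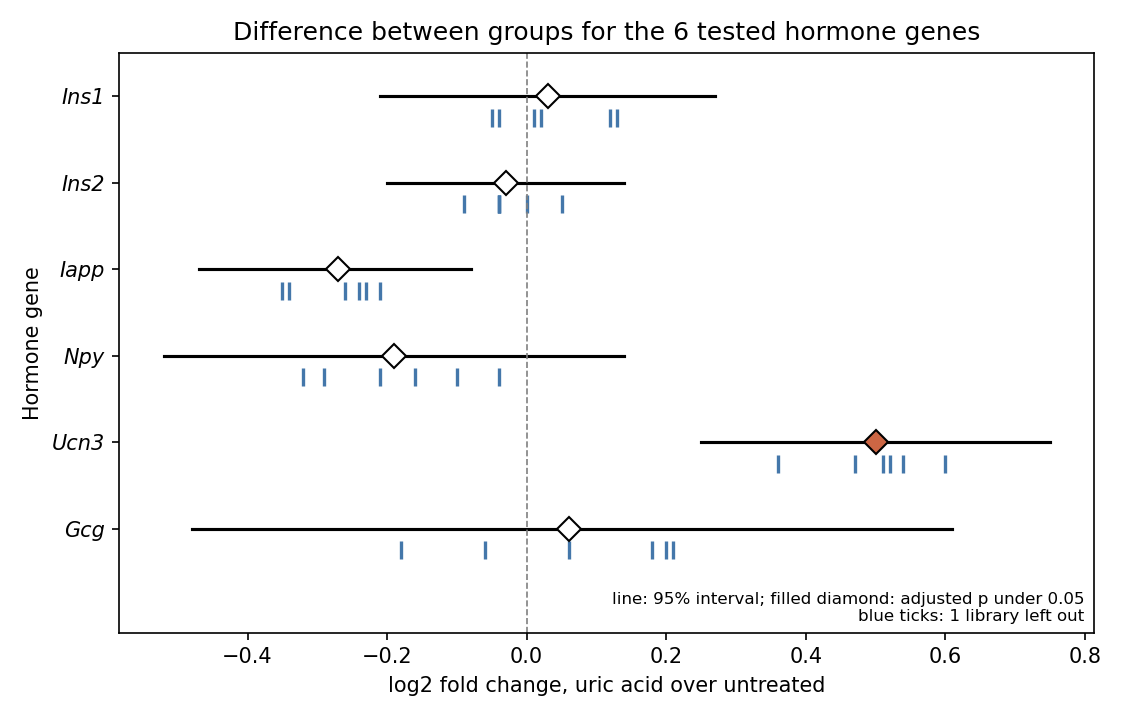
Log2 fold change of uric acid over untreated for the 6 tested hormone genes, with the edgeR estimate as a diamond, its 95% interval as a line and the estimates with 1 library left out as blue ticks. Ucn3, at 0.50, is the gene whose diamond is filled (adjusted p under 0.05), and the intervals of Ins1, Ins2, Npy and Gcg include 0.

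For neither insulin gene was a difference between the groups larger than the spread between libraries. Ins1 (ENSRNOG00000012052; chromosome 1 from 272799784 to 272800347, plus strand) was measured at 44093, 47936 and 54102 FPKM without and at 51282, 55064 and 43003 FPKM with uric acid. The lowest and the highest values were both uric acid libraries, and the groups overlapped throughout. The fold was 1.02 with a 95% interval from 0.864 to 1.21 (adjusted p = 0.895, edgeR). Ins2 (ENSRNOG00000020405; chromosome 1 from 215856971 to 215858034, minus strand) was measured at 16494, 17902 and 19684 FPKM in the untreated and at 18232, 17844 and 17076 FPKM in the uric acid libraries. All 3 uric acid values lay inside the untreated range. Its fold was 0.981 with an interval from 0.871 to 1.11 (adjusted p = 0.859, edgeR). For these positions and all others from the table, the build is not given in the sources used. In bulk RNA, fewer cells making a message and less message per cell cannot be told apart, here and for every result below.

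Of all estimated counts, Ins1 held 2.4, 2.59 and 2.95% in the untreated and 2.75, 2.98 and 2.36% in the uric acid libraries (2.65 ± 0.281% and 2.7 ± 0.315%, SD, n = 3 each, exact permutation p = 0.9). Ins2 held 0.898, 0.97 and 1.08% against 0.981, 0.968 and 0.939% (0.981 ± 0.0894% and 0.963 ± 0.0217%, SD, n = 3 each, exact permutation p = 0.8). Counting error was far smaller than these differences between libraries: the exact (Clopper-Pearson) 95% interval of the Ins1 share in untreated library 1 ran from 2.39 to 2.4%. Such intervals, taken over counts divided by 4, cover counting error only, since reads had no molecular identifiers.

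The ratio of the insulin genes to each other overlapped between the groups. Ins1 stood above Ins2 by a ratio of 2.67, 2.68 and 2.75 (FPKM over FPKM) without uric acid and 2.81, 3.09 and 2.52 with it. The untreated ratios were close together and lay inside the wider uric acid range. The log2 ratio differed by 0.05 between the groups (exact permutation test, two-sided, p = 0.7, 3 libraries each). The coding parts of these genes are closely alike, so some reads cannot be assigned to either with certainty.

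The sequence before each insulin start site is shown because Ins1 arose as a copy of Ins2 and the ratio of their messages is one of the results. These are the 250 bases before the RefSeq start in build GRCr8, Ins1 from chr1:261185869-261186118 (plus strand) and Ins2 from chr1:207273806-207274055 (minus strand), each written 5′ to 3′. Capitals mark the insulin E box GCCATCTG, bound by NEUROD1 with its partner TCF3, the A box core TAAT, bound by homeodomain factors such as PDX1, and TGACG, the core of the cyclic AMP response element, each on either strand.
Ins1: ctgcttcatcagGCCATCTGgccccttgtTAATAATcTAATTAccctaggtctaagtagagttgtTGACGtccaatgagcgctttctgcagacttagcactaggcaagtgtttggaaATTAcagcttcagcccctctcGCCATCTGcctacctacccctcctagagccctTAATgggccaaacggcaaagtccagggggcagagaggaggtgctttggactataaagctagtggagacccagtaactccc
Ins2: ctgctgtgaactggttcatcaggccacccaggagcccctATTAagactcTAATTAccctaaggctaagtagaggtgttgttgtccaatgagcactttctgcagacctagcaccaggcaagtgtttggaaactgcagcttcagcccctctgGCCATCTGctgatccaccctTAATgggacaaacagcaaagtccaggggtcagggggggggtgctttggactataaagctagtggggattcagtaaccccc
The windows were identical at 209 of 263 aligned positions (79.5%, global alignment). Ins1 had 2 matches to GCCATCTG, at 238 and 112 bases before the start, and Ins2 had 1, at 100 bases. Of 33465 RefSeq promoter windows of the same length, 0.998% held GCCATCTG. TAAT matched 6 times in Ins1 and 4 times in Ins2, counting overlapping matches on both strands (57% of all windows held at least 1). TGACG matched 1 time in Ins1 and not in Ins2 (18.2% of all windows), and TATAA matched 1 time in each, at 30 bases (24% of all windows). A match describes letters and does not show binding.

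Iapp, which encodes amylin, was the hormone gene nearest to a lower call. Iapp (ENSRNOG00000012417; chromosome 4 from 176510696 to 176516083, plus strand) was measured at 6563, 7947 and 7359 FPKM in the untreated and at 6658, 5672 and 5808 FPKM in the uric acid libraries. Uric acid libraries 2 and 3 lay below every untreated library, and uric acid library 1 lay just above untreated library 1. The log2 fold change was -0.27 ± 0.09 (SE; 95% interval -0.47 to -0.08), with an adjusted p of 0.089 in edgeR and 0.035 in DESeq2. The estimate was negative in all 17 alternative fits, from -0.35 to -0.21, and passed the threshold in 1 of them, DESeq2. Slco1a2 overlaps Iapp on the other strand and was measured at a mean of 0.267 and 0.287 FPKM in the groups.

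Iapp held 0.373, 0.45 and 0.42% of all counts in the untreated and 0.374, 0.322 and 0.334% in the uric acid libraries (0.415 ± 0.0387% and 0.343 ± 0.0276%, SD, n = 3 each, exact permutation p = 0.2). Set against insulin in the same library, which removes the library total, the groups separated. Ratios to summed insulin, here and below, were not among the planned comparisons. Of single tested features 31% had groups that did not overlap, and the share over ratios of all features to insulin was not computed. Per 1000 FPKM of Ins1 and Ins2 together there were 108, 121 and 99.7 FPKM of Iapp without uric acid and 95.8, 77.8 and 96.7 FPKM with it. Every uric acid value was below every untreated value, although 96.7 and 99.7 lie close together. The means differed by -17.8% (110 ± 10.5 and 90.1 ± 10.6 FPKM per 1000, SD, n = 3 each, exact permutation p = 0.1, the smallest this design allows).

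The Iapp window is shown beside the insulin ones because its ratio to insulin message did not overlap between the groups, chr4:176967847-176968096 in GRCr8 (plus strand), with the same letters in capitals.
Iapp: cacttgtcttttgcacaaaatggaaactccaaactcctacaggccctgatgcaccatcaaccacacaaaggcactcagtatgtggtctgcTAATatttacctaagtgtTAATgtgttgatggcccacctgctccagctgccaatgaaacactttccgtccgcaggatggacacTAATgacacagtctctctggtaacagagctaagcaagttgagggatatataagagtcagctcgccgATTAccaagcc
It held 4 matches to TAAT and none to GCCATCTG or TGACG. It was identical to the Ins1 window at 51.3% of aligned positions and to the Ins2 window at 51.5%, and TATAA lay 30 bases before the start as in both insulin genes.

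Ucn3 was the hormone gene that rose. Its product, urocortin 3, is a peptide of the corticotropin-releasing factor family that mature beta cells release with insulin and that stimulates somatostatin release through the receptor CRHR2. Ucn3 (ENSRNOG00000017759; chromosome 17 from 69960160 to 69966099, plus strand) was measured at 114, 109 and 114 FPKM without and at 137, 188 and 151 FPKM with uric acid. The untreated values were almost the same (coefficient of variation 2.79%), the uric acid values were spread (16.4%), and the groups did not overlap. By comparison, 31% of all tested features had groups that did not overlap. The fold was 1.42 with a 95% interval from 1.19 to 1.69 (log2 fold change 0.50 ± 0.11 SE, adjusted p = 0.0296, edgeR; higher in 3 of 3 libraries).

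The direction of Ucn3 was the same in all 17 alternative fits, with a log2 fold change from 0.36 to 0.60, and 13 of them passed the threshold. The call was lost without untreated library 1 (adjusted p = 0.0895), 2 (0.135) or 3 (0.075), at log2 fold changes of 0.51, 0.47 and 0.52. It held without uric acid library 1 (0.0326), 2 (0.029) or 3 (0.0335), and was smallest, at 0.36, without uric acid library 2. DESeq2 gave an adjusted p of 0.000957 and limma on log2(FPKM + 1) gave 0.0402. Mitochondrial features held 7.89, 7.87 and 8.24% of counts without and 8.49, 9.1 and 8.28% with uric acid, groups that did not overlap. With totals that leave out these and the insulin genes, the Ucn3 estimate was 0.49 (adjusted p = 0.03, edgeR).

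Ucn3 held 0.00712, 0.00674 and 0.00713% of all counts in the untreated and 0.00846, 0.0117 and 0.00953% in the uric acid libraries (0.007 ± 0.00022% and 0.00989 ± 0.00164%, SD, n = 3 each, exact permutation p = 0.1, adjusted p = 0.8 over the 7 genes and their sum). Counting error alone gave an interval of 0.0067 to 0.00756% in untreated library 1 and of 0.00795 to 0.00899% in uric acid library 1, the nearest of the uric acid libraries. Per 1000 FPKM of insulin message there were 1.88, 1.65 and 1.54 FPKM of Ucn3 in the untreated and 1.97, 2.58 and 2.52 FPKM in the uric acid libraries. The groups again did not overlap, with a difference of 39.3% between the means (1.69 ± 0.175 and 2.36 ± 0.332 FPKM per 1000, SD, n = 3 each, exact permutation p = 0.1), although 1.88 and 1.97 are close.

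**Figure D3:**
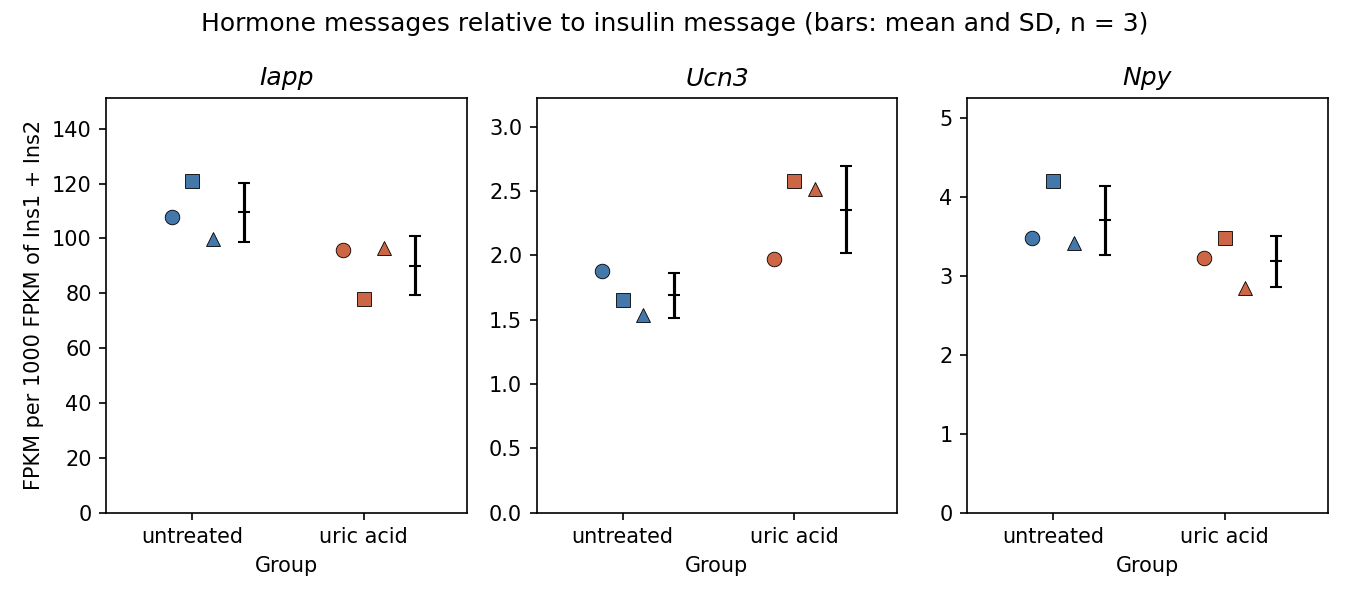
FPKM of Iapp, Ucn3 and Npy per 1000 FPKM of Ins1 and Ins2 together in each library, by group, with 1 marker shape per replicate number and the mean and SD (n = 3) beside the points; each panel has its own axis from 0. Iapp is lower (means 110 and 90.1) and Ucn3 higher (1.69 and 2.36) in every uric acid library, and the Npy groups overlap.

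The window before the Ucn3 start, the member that passed the test, is shown for chr17:71219406-71219610 in GRCr8 (plus strand). The last 45 of its 250 bases are left out because the RefSeq gene entry begins there. Capitals mark the same letters.
Ucn3: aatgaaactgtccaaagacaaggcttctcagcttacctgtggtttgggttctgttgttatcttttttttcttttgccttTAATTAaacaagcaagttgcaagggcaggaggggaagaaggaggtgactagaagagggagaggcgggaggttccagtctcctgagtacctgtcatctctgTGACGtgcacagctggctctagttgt
The Ucn3 window held 2 overlapping matches to TAAT and 1 to TGACG, 71 bases before the start, and none to GCCATCTG or TATAA in all 250 bases. TGATGNAA, the core letters of the composite element of ATF4 and C/EBP, was found in 3.4% of all windows and had no match in those of the 8 named genes. TGCTGA, a core of MAF recognition elements, was found in 15.1% of all windows, among them those of Ins2 and Pyy.

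Ratios between the hormone genes do not depend on the library total. Among the 15 pairs of the 6 tested genes, a comparison added after the values were seen, 7 had ratios whose groups did not overlap, and 4 of these 7 involved Ucn3. Of the 15 pairs 5 held Ucn3, whose own FPKM groups did not overlap, so its ratios are not separate observations. Of single tested features 31% had groups that did not overlap; the share over ratios of all features was not computed. No pair passed an adjusted p of 0.05, since the smallest exact p of 0.1 becomes 0.214 over 15 pairs. The largest log2 difference of the 15 was that of Iapp over Ucn3, at 57.5, 73.2 and 64.7 in the untreated and 48.5, 30.2 and 38.4 in the uric acid libraries (a log2 difference of -0.76, exact permutation p = 0.1). Npy over Ucn3 was 1.85, 2.55 and 2.22 against 1.64, 1.35 and 1.13 (-0.69, exact permutation p = 0.1). Ins1 over Iapp was 6.72, 6.03 and 7.35 against 7.7, 9.71 and 7.4 (0.30), and Ins1 over Ucn3 was 386, 442 and 475 against 374, 293 and 284 (-0.46, both at an exact permutation p of 0.1). Ins1 over Npy was 209, 173 and 215 against 228, 217 and 252 (0.23, exact permutation p = 0.1), while Ins2 over Npy overlapped (exact permutation p = 0.4). Ucn3 over Gcg overlapped between the groups (exact permutation p = 0.3).

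**Figure D4:**
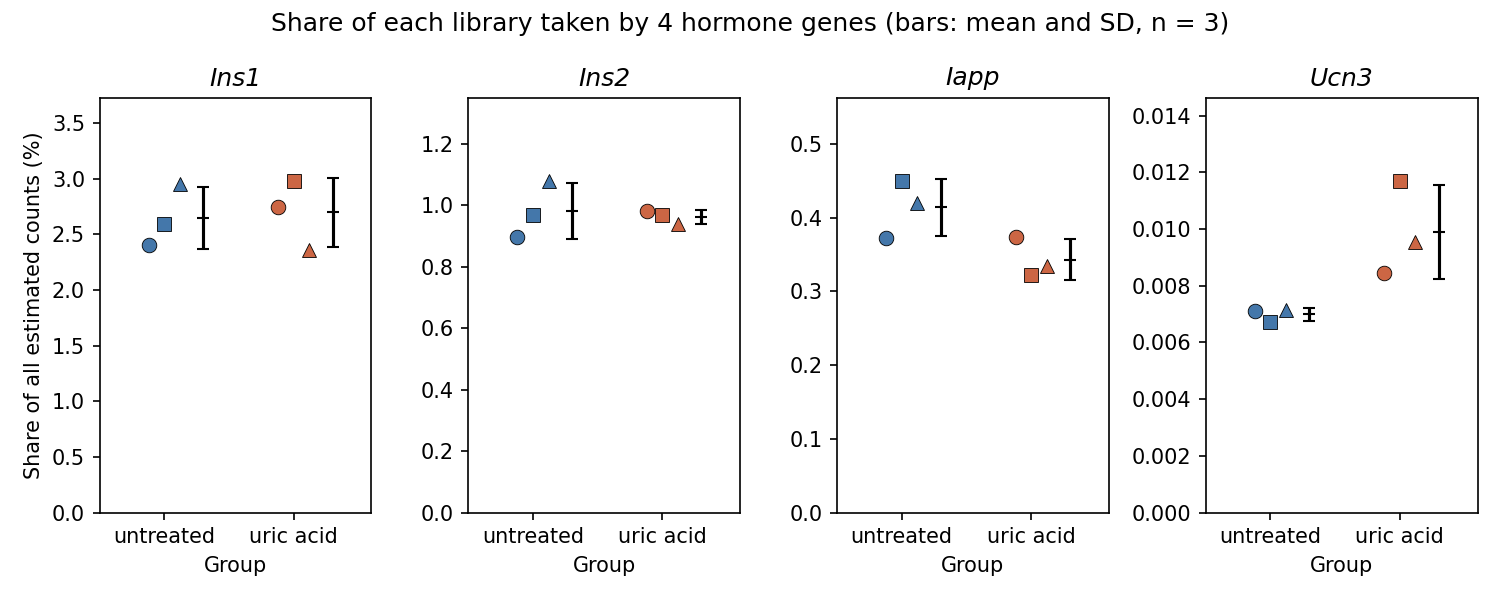
Share of all estimated counts (%) held by Ins1, Ins2, Iapp and Ucn3 in each library, by group, with 1 marker shape per replicate number and the mean and SD (n = 3) beside the points; each panel has its own axis from 0. The Ins1, Ins2 and Iapp groups overlap, and the 3 uric acid values of Ucn3 (0.00846 to 0.0117%) lie above the 3 untreated values (0.00674 to 0.00713%).

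Npy, which encodes neuropeptide Y, an inhibitor of insulin release, did not differ beyond the spread. Npy (ENSRNOG00000046449; chromosome 4 from 79573998 to 79581208, plus strand) was measured at 211, 276 and 252 FPKM in the untreated and at 225, 253 and 171 FPKM in the uric acid libraries. Uric acid library 3 was the lowest of all, and the other uric acid libraries lay within the untreated range. The fold was 0.877 with an interval from 0.698 to 1.1 (adjusted p = 0.446, edgeR), and its share of counts was 0.0148, 0.0193 and 0.0178% against 0.0156, 0.0177 and 0.0121%. A neighbouring feature 8.9 kb away on the same strand, LOC100912228, is described in the table as a pro-neuropeptide Y-like gene, and reads may be hard to assign between it and Npy. It was singled out after its values were seen. Its counts were 98.6, 75.5 and 97.8% of those of Npy in the untreated and 99, 98.5 and 98% in the uric acid libraries, so untreated library 2 stood apart from the rest. Its levels were 197, 198 and 234 FPKM against 211, 236 and 158 FPKM (log2 fold change -0.06 ± 0.14 SE, adjusted p = 0.838, edgeR). With both features summed there were 408, 474 and 486 FPKM in the untreated and 436, 490 and 329 FPKM in the uric acid libraries (456 ± 41.8 and 418 ± 81.8 FPKM, SD, n = 3 each, exact permutation p = 0.7). The levels, ranks, shares and ratios given for Npy are those of the Npy feature alone. They may depend on how reads were assigned between these features, most of all in untreated library 2.

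Gcg, the gene for glucagon and the glucagon-like peptides, was measured at a low level in every library. Gcg (ENSRNOG00000005498; chromosome 3 from 48442635 to 48451650, minus strand) stood at 5.46, 10.2 and 10.1 FPKM in the untreated and at 10.6, 8.96 and 7.47 FPKM in the uric acid libraries. Untreated library 1 was the lowest, and the groups overlapped. The fold of 1.05 had the widest interval of the 6 genes, from 0.718 to 1.52 (adjusted p = 0.898, edgeR). It held 0.000702% of counts in untreated library 1 (95% interval 0.000575 to 0.000853%) and 0.00097 to 0.00134% in the other 5 libraries. Beside 1000 FPKM of insulin message there were 0.0901 to 0.156 FPKM of Gcg.

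Pyy, the gene for peptide YY, had 0 counts in untreated libraries 1 and 2 and in uric acid libraries 1 and 2. It had 5 counts in untreated library 3 and 3 counts in uric acid library 3, about 1 read pair each (0.164 and 0.0959 FPKM). Pyy (ENSRNOG00000020877) lies on chromosome 10 from 90047993 to 90049112 on the minus strand. A count of 0 allows up to 3 read pairs, which is 12 counts, or a share of up to 2.03e-05% in untreated library 1 and 2.91e-05% in uric acid library 2, equal to 0.307 and 0.441 FPKM. All 6 libraries were below that limit, so no fold is given.

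Other peptide precursors of islet and gut endocrine cells were compared as a list. Of 32 chosen, 25 were matched and 12 tested, and none was called in edgeR or DESeq2 (4 at an unadjusted edgeR p under 0.05; median log2 fold change -0.16); without uric acid library 3, edgeR called Edn1 and Vgf as lower. Since edgeR called 7.98% of all tested features, none of 12 is not read as a result about these precursors. The granins, acidic proteins that help to form secretory granules, were the most abundant of them. Chga was measured at 6017 ± 78 and 6019 ± 215 FPKM (SD, n = 3 each), near the level of Iapp. Chgb was measured at 6524 ± 163 and 6979 ± 293 FPKM (adjusted p = 0.321, edgeR). Ppy, for pancreatic polypeptide, was listed at 0 in 5 libraries and at 0.227 FPKM in uric acid library 3, and Ghrl, for ghrelin, stood at 0.0925 to 0.546 FPKM.

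Enzymes and helpers that turn prohormones into peptides were compared as a list. Of 13 tested, 1 rose and none fell in edgeR, beside 4.99% called higher and 2.99% lower over all tested features (3 at an unadjusted p under 0.05; median log2 fold change -0.14), and DESeq2 also called Pdia4 as lower. Scg5, the chaperone 7B2 that PCSK2 needs to mature, rose from 376, 371 and 393 FPKM to 430, 472 and 465 FPKM (log2 fold change 0.26 ± 0.07 SE, adjusted p = 0.0439, edgeR). The Scg5 call was lost with any 1 library left out, at adjusted p from 0.0651 to 0.196. It was also lost with upper-quartile scaling (0.0546), with no filter (0.0555) and with limma at a pseudocount of 1 (0.0509) or 0.1 (0.0513). The convertase Pcsk2 stood at 446 ± 17.2 and 433 ± 11.7 FPKM (adjusted p = 0.673). Pcsk1, the other convertase of proinsulin, stood far lower at 9.06 ± 0.35 and 7.87 ± 1.37 FPKM (SD, n = 3 each; edgeR adjusted p = 0.319). Cpe, the carboxypeptidase that trims the cut ends, stood at 980 ± 22.4 and 1045 ± 34.8 FPKM (0.355), and Pam, which amidates amylin and NPY, at 178 ± 4.86 and 162 ± 16.1 FPKM (0.297).

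Of 23 transcription factors of the hormone genes, 20 were matched and 19 tested: 1 rose, 3 fell and 15 did not pass, with a median log2 fold change of -0.15. Over all tested features 4.99% were called higher and 2.99% lower. Mafa, an activator of the insulin genes, fell from 400, 370 and 398 FPKM to 280, 254 and 313 FPKM (log2 fold change -0.46 ± 0.08 SE, adjusted p = 0.0129, edgeR) in libraries where the insulin differences were within the spread. Isl1 fell from 50.6 ± 3.09 to 41.3 ± 0.838 FPKM (0.0282) and Mnx1 from 67.8 ± 1.13 to 54.5 ± 3.52 FPKM (0.031). Foxa2 rose from 45 ± 0.445 to 56.5 ± 2.24 FPKM (0.0175). Pdx1, which binds A boxes of the insulin and Iapp genes, stood at 269, 271 and 295 FPKM and at 220, 229 and 250 FPKM, groups that did not overlap, and missed the threshold (-0.26 ± 0.07 SE, 0.0699). Neurod1 stood at 82 ± 3.66 and 93.3 ± 3.94 FPKM (0.107) and Nkx6-1 at 45.1 ± 2.87 and 40.3 ± 2.08 FPKM (0.18). With 1 library left out, calls for Mafa were lost without untreated library 1 (0.0564) or uric acid library 1 (0.071) and for Foxa2 without untreated library 1 (0.0629) or 2 (0.103). Isl1 was lost without untreated library 1 (0.101) or 2 (0.134) or uric acid library 1 (0.107), and Mnx1 without any library except uric acid library 3 (0.0582 to 0.136). Pdx1 passed with DESeq2 (0.0228) and without uric acid library 3 (0.0405).

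**Figure D5:**
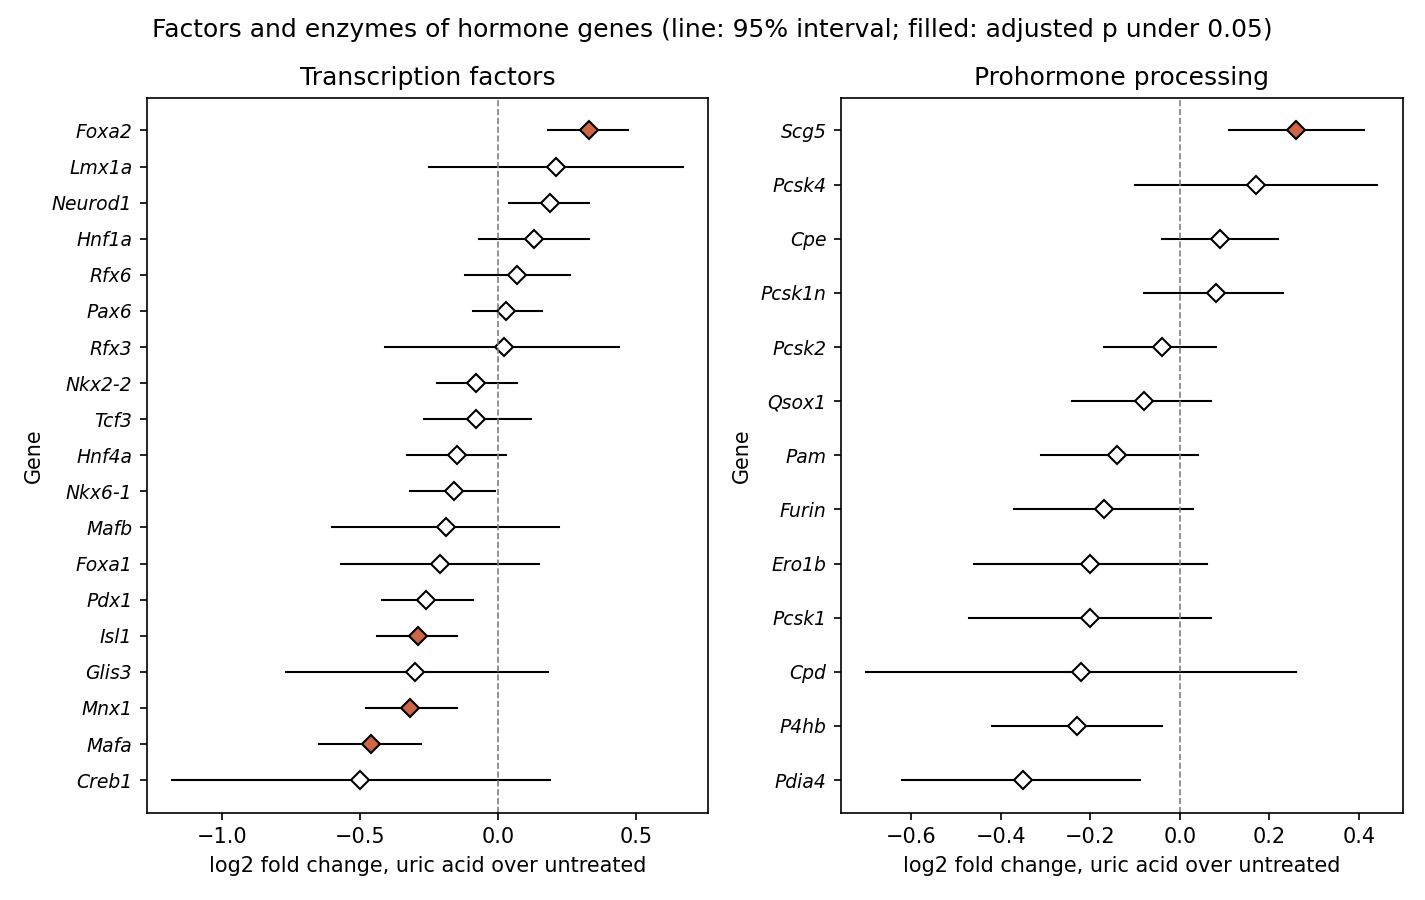
Log2 fold change of uric acid over untreated with its 95% interval (edgeR) for the 19 tested transcription factors of hormone genes and the 13 prohormone processing genes; filled diamonds passed an adjusted p of 0.05. Mafa (-0.46), Mnx1 and Isl1 lie on the lower side and Foxa2 and Scg5 (0.26) on the higher side, and the other diamonds are open.

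Receptors listed for these hormones ranged widely in level. Gipr was the highest of those matched, at 87.5 ± 4.66 FPKM untreated and 98 ± 4.22 FPKM with uric acid (SD, n = 3 each). Of 20 chosen, 15 were matched and 9 tested, with 1 lower and none higher (edgeR; 3 at an unadjusted p under 0.05; DESeq2 called 2 lower and none higher; median 0.03). By comparison, edgeR called 4.99% of all tested features higher and 2.99% lower, and DESeq2 called 968 features higher and 785 lower. With 9 receptors tested, these counts are not read as a result about the list. Sstr3, a somatostatin receptor, fell from 37.7, 33.9 and 33.8 FPKM to 28, 25.6 and 29.3 FPKM (log2 fold change -0.35 ± 0.07 SE, adjusted p = 0.0255, edgeR). The Sstr3 call was lost without untreated library 1 (0.0939), 2 (0.0839) or 3 (0.0597) or uric acid library 1 (0.0996). Sstr2 stood at 5.49 ± 0.409 and 4.2 ± 0.342 FPKM (0.0901; 0.0391 with DESeq2). Glp1r, the receptor of the glucagon-like peptide that Gcg encodes, stood at 37.9 ± 2.31 and 41.6 ± 4.36 FPKM (0.369). Insr, the insulin receptor, stood at 0.329 to 0.722 FPKM, and Crhr2 was not analysed here.

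Genes whose pattern was most like each hormone were found by Pearson's r of log2(FPKM + 1) over the 6 libraries, among features with a settled symbol and a mean of at least 10 FPKM. These values are descriptions over 6 libraries that share the groups and totals, and with 5904 or 5905 features compared high values are common: 95 exceeded 0.95 for Ucn3, 50 for Iapp and 36 for Ins1. For Iapp they were P4hb, a protein disulfide isomerase (0.997, at 655 and 559 FPKM), and the glycolytic gene Pgk1 (0.997). For Ucn3 they were the RNA-binding protein gene Rbm38 (0.991) and Ctsa, which encodes the lysosomal cathepsin A (0.99). Ctsa passed the test (mean 120 FPKM untreated, 147 FPKM with uric acid; edgeR, adjusted p = 0.0359). The nearest were Cenph and Psmb4 for Ins1 (0.988 and 0.986), Pigt and Slc25a11 for Ins2 (0.977 and 0.962), Tmem222 and Lage3 for Npy (0.99 and 0.986) and Gins4 and Atp6v0e2 for Gcg (0.984 and 0.979). The insulin genes were not nearest to each other.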

How the data were processed

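RNA of INS-1E cells was measured in 6 libraries, 3 per group, with groups and replicate numbers taken from the sample titles. Per the labels' protocols, messenger RNA was selected on oligo-dT beads, the second strand was marked with dUTP, and read pairs of 150 bases were sequenced. Tools listed in the submitters' processing notes are StringTie 1.3.4d, HISAT2 2.0.4, cutadapt 1.9, edgeR and DESeq2. The genome build, the annotation and the strand setting of the counting are not given in the sources used here. Per the file headers, the deposited table gives FPKM and a count for each library. The deposited counts are estimated counts rather than reads: they step down after 4 (1829 values equal 4 and 891 equal 5), so they were read as up to 4 per read pair. Every column of sample values was assigned to 1 of the libraries.

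The estimated counts as deposited (already whole numbers) of features averaging 1 FPKM or more went into edgeR 4.0.16 in R 4.3.3, with TMM factors between 0.992 and 1.009, no covariate and the two-sided quasi-likelihood test. Benjamini-Hochberg adjustment covered all 12460 tested features. The common biological coefficient of variation was 0.127 and the smallest absolute log2 fold change called 0.208. Single values were compared with exact permutation tests. On simulated data with 100 of 12460 genes changed at each size, edgeR recovered 55% of log2 changes of 0.5 and 94% of changes of 1, with 11 false calls. Alternatives were the scaling, the filter, DESeq2 1.42.0, limma 3.58.1 (pseudocounts 1 and 0.1), the replicate number as a block, and each library left out. Counts divided by 4, and totals without insulin and mitochondrial features, were added after the data were seen. Promoter sequences are from RefSeq (GRCr8), and all 8 named genes were matched there.

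The hormone genes and the gene lists were chosen with earlier results of these data known. Named genes were the hormone genes, up to 4 called members of each list by smallest p, a set of factors, enzymes and receptors, Atf4 and Ddit3, and the 2 features most like each tested hormone. Other list members given with values were named after these were seen.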

Additional observations from a re-analysis of the deposited data

How the results depend on the processing

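The direction of Iapp, Ucn3 and Npy was the same in all 17 alternative fits. Near-zero values changed sign when 1 library was left out: log2 fold changes ran from -0.05 to 0.13 for Ins1, -0.09 to 0.05 for Ins2, -0.18 to 0.21 for Gcg and -0.02 to 0.02 for Chga, which was also at 0.01 with a mean FPKM of at least 5. Differences in share of counts (percentage points, uric acid minus untreated) then ran from -0.09 to 0.221 for Ins1, -0.0604 to 0.0285 for Ins2, -0.000153 to 0.000151 for Gcg, -3.48e-06 to 2.23e-06 for Pyy and -0.227 to 0.165 for all 7 genes, and the log2 ratio of Ins1 to Ins2 from -0.02 to 0.13. Over all features, 622 were higher and 372 lower; DESeq2 gave 968 and 785, and 1 library left out gave 165 to 707 and 66 to 466. With the replicate number as a block (replicate block) they were 223 and 99, and Ucn3 was at an adjusted p of 0.0757 (log2 fold change 0.49); the calls for Foxa2, Isl1, Mnx1, Scg5 and Sstr3 were lost as well, and that for Mafa held. Same-numbered libraries had correlations of 0.0684, -0.0492 and -0.19 in their deviations from the group means, so the numbers were not taken to pair them; not every library correlated best with its own number. The cause of these differences between fits was not tested. Pyy, at 0 to 5 counts in a library, was below the limit that a count of 0 allows.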

Other observations

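Neighbours of the hormone genes, the 2 nearest listed features by distance, were read from the same fit. Net1, a guanine nucleotide exchange factor for RhoA, lies 44.7 kb from Ucn3 and rose from 70.9, 74.4 and 72.9 FPKM to 139, 141 and 141 FPKM (log2 fold change 0.95 ± 0.06 SE, edgeR adjusted p = 9.29e-05). Its untreated and uric acid values each lay close together and did not overlap. Tubal3, which lies between them at 8.17 kb from Ucn3, stood at 0.163 ± 0.0638 and 0.24 ± 0.0876 FPKM (SD, n = 3 each). Igf2, 10.1 kb from Ins2 on the same strand, stood at 86.4, 87.9 and 88.6 FPKM and at 78.5, 73 and 86.1 FPKM (-0.15 ± 0.07, adjusted p = 0.227, edgeR).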
